A study of Mus musculus with 2 samples.

Results

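The genes described here are imprinted genes of TUBO cells, a mouse mammary cancer line derived from a tumour of a BALB/c mouse that carried the rat Her2/neu transgene. A fixed list named 36 genes known to be imprinted in the mouse, and 35 of them had a row among the 31017 genes of the count table. Rian was the gene without a row and was not analysed here. The labels give 1 group of untreated cells with 2 libraries (replicates 1 and 2), grown flat on plastic, so no condition was compared with another and the results are levels. The labels do not say that the libraries came from separate cultures, so their spread may be technical.

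Genomic imprinting is the expression of a gene from the allele of only one parent. The choice is set by a DNA methylation mark that differs between egg and sperm and that sits on a control region shared by the genes of a domain. Many imprinted genes act in growth and in the placenta, and several domains carry a long noncoding RNA, transcribed from one parental allele, beside protein-coding genes expressed from the other. The counts sum the reads of both alleles, so the parental labels used below are background from other work and no allele was measured. In these bulk libraries fewer expressing cells and less RNA per cell cannot be told apart.

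Replicate 1 held 35453278 counts and replicate 2 held 34098259. Levels are CPM, counts relative to the TMM-scaled library total, given for each library or as mean ± SD (n = 2). Detected means at least 1 CPM in each library. The floor is 3 counts, or 0.0842 CPM in replicate 1 and 0.0885 CPM in replicate 2. It is an approximate upper limit for a gene listed at 0, not a strict maximum, and it covers counting error alone. All 6 mammary epithelial markers were detected, with summed levels of 4577 and 4492 CPM in replicates 1 and 2. The summed levels were 7.91 and 8.93 CPM for 6 fibroblast markers, of which Pdgfra was detected at 6.87 and 8.40 CPM, Col1a1 had 37 and 18 counts, and Col1a2, Dcn, Lum and Pdgfrb had no count. They were 0.757 and 0.796 CPM for 4 myoepithelial markers, 0.168 and 0.236 CPM for 3 endothelial markers and 0 for 4 leukocyte markers.

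The imprinted genes ranged from no count to 955 ± 61.8 CPM. Of the 35 genes 14 (40%) were detected, against 37.7% of all genes in the table, and 14 (40%) had no count in either library, against 41% of all genes. The other 7 had 1 to 36 counts in their higher library. Of the 30 protein-coding members 12 (40%) were detected, against 50.5% of all protein-coding genes, and 12 (40%) had no count, against 31.7%. The median log2(CPM + 1) over the members was 0.19 ± 0.16, against 0.12 ± 0.00403 over all genes. These shares lay near those of the whole table, so the members are described below by domain. Peg3, Igf2r and Cd81 together took 86.1% of the members' summed CPM in replicate 1 and 86.0% in replicate 2.

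**Figure D1:**
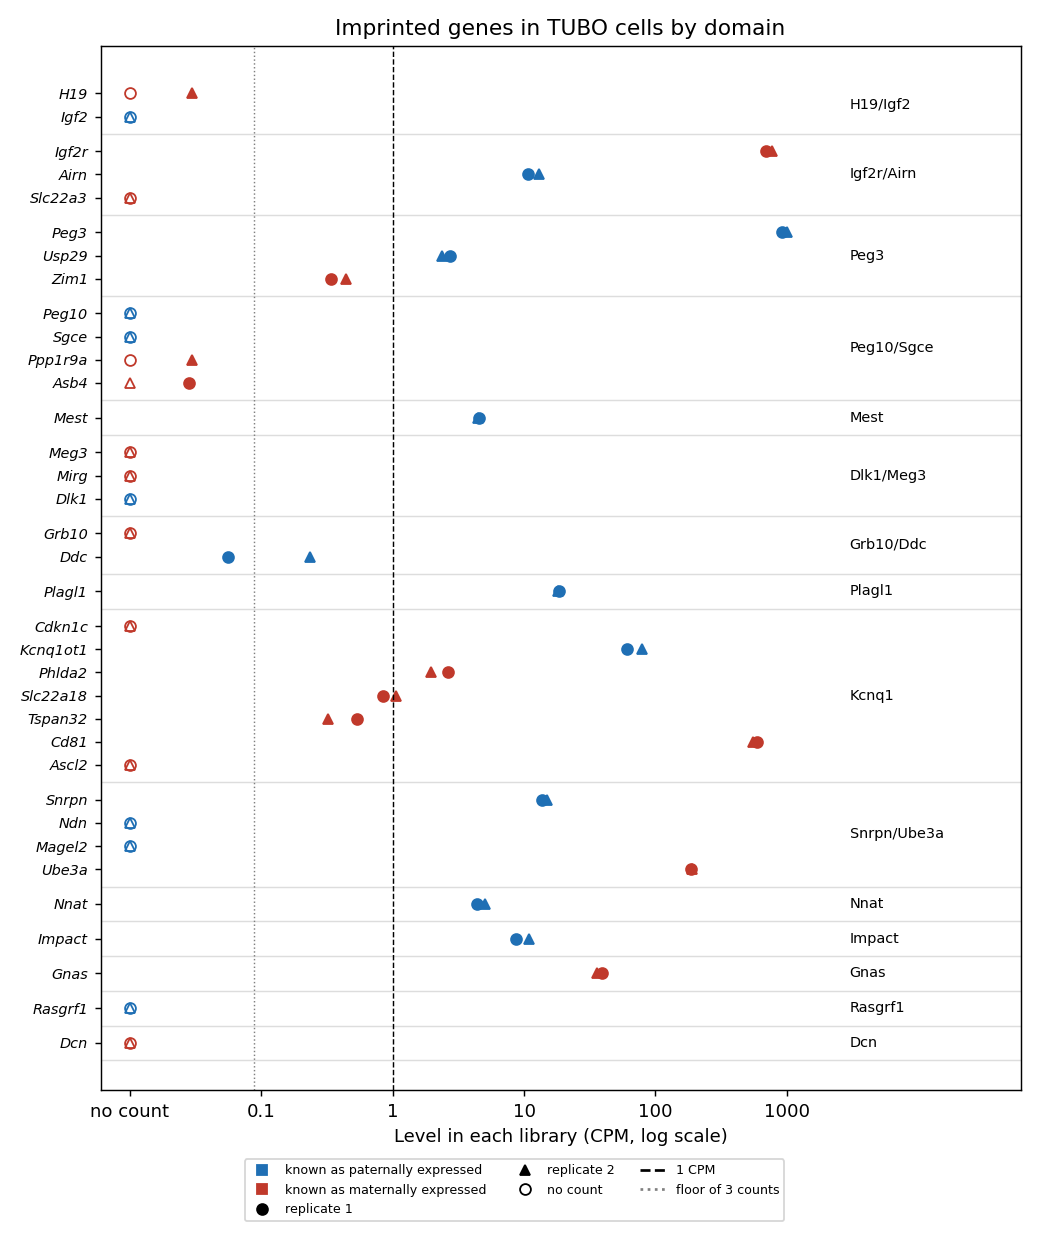
Level of each imprinted gene in both libraries (horizontal axis, CPM, log scale; circles replicate 1, triangles replicate 2), grouped by domain and coloured by the parental allele known to be expressed. Open symbols mark no count, the dashed line marks 1 CPM and the dotted line the higher of the floors of 3 counts. Peg3, Igf2r and Cd81 lie far right of all others in both libraries, from 551 CPM upward, and 14 genes have open symbols only.

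The Peg3 domain held the member with the most counts. Peg3 (chromosome 7, 6703892 to 6730431, GRCm38), which encodes a zinc finger protein expressed from the paternal allele, stood at 911 CPM in replicate 1 and 999 CPM in replicate 2. Usp29, a deubiquitinase gene also expressed paternally, is read in the opposite direction from a start close to that of Peg3. It stood at 2.75 and 2.39 CPM. Divided by exonic length, Peg3 was 508.5 ± 83.2 times as abundant as Usp29. With the longest transcript as the length, the ratio was 325. Of the exonic bases of Usp29, 14.3% lie opposite exons of other genes. Zim1, a zinc finger gene known as maternally expressed, was below 1 CPM with 12 and 15 counts. Per length, Peg3 exceeded Zim1 by 1506 ± 193 times, a ratio that rests on those few counts.

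The 163 bases between the RefSeq starts of Peg3 and Usp29 are shown because a single stretch lies before both genes. They are given on the strand of Peg3 (chr7:6730420-6730582, minus strand, RefSeq on GRCm38.p6), with each CpG, the dinucleotide that carries DNA methylation, in capitals.
Peg3-Usp29: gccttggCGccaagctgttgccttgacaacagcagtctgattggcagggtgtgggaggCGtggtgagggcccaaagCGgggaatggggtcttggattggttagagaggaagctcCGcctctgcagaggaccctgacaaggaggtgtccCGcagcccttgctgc
This stretch holds 5 CpG dinucleotides, and 17 of its bases, at its ends, lie in GENCODE exons.

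The Igf2r/Airn domain followed. Igf2r (chromosome 17, 12682406 to 12769664) encodes the receptor that takes up IGF2 and delivers it to lysosomes, and also carries mannose-6-phosphate enzymes. It stood at 694 CPM in replicate 1 and 765 CPM in replicate 2. Airn (12741311 to 12860136) is a long noncoding RNA, transcribed from the paternal allele against the direction of Igf2r and known to silence Igf2r on that allele. Its level was 10.6 and 13.1 CPM. Divided by exonic length, Igf2r was 23.9 ± 1.89 times as abundant as Airn. With the longest transcript as the length, the ratio was 9.57. No exon base of Airn overlaps an Igf2r exon, but its span runs through the Igf2r gene. Whether strand was used in counting is unknown here, so reads from Igf2r introns cannot be told apart from Airn reads. Slc22a3, an organic cation transporter gene that Airn is known to silence in the placenta, had no count.

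The sequences before the starts of Igf2r and Airn are shown because these genes of a single domain differ in level and in CpG before the start. Each is the 250 bases before the start, on the strand of its gene, with CpG in capitals, from RefSeq on GRCm38.p6: Igf2r at chr17:12769707-12769956 (minus strand) and Airn at chr17:12741061-12741310 (plus strand).
Igf2r: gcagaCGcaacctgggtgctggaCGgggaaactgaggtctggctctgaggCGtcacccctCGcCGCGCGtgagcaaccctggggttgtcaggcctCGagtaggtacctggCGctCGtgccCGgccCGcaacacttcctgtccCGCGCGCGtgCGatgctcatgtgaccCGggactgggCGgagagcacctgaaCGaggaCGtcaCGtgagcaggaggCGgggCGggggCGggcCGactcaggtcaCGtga
Airn: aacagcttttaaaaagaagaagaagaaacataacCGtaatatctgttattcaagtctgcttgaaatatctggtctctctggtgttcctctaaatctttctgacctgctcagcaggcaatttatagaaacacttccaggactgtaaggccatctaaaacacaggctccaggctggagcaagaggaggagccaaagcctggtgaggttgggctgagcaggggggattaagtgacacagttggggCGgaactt
The Igf2r stretch holds 27 CpG and the Airn stretch 2. CpG after the starts were not counted, so these numbers do not describe the whole promoter or control region. Of the genes of the table with a promoter in RefSeq, 11.4% hold as many CpG as Igf2r or more, and 84.2% as many as Airn or more.

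The Kcnq1 domain held members from no count to 571 ± 27.8 CPM. Cd81 (chromosome 7, 143052739 to 143067934), a tetraspanin gene of the cell surface, stood at 591 CPM in replicate 1 and 551 CPM in replicate 2. It lies near the edge of the domain and is known to be imprinted mainly in the placenta. Kcnq1ot1 (143203458 to 143296549), the long noncoding RNA read from the paternal allele, had 2165 and 2682 counts, or 60.7 and 79.1 CPM. Its host gene Kcnq1, read in the opposite direction and overlapping all of it, had no count in either library. Phlda2, a growth-limiting gene of the placenta, was detected at a low level, with 2.64 and 1.95 CPM.

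The remaining genes of that domain were lower. Slc22a18, a transporter gene, had 30 and 36 counts (0.842 and 1.06 CPM), so it passed 1 CPM in replicate 2 only. Tspan32, a tetraspanin gene of blood cells, had 19 and 11 counts. Cdkn1c, the gene of the p57 inhibitor of cyclin-dependent kinases, and Ascl2, a transcription factor gene of the trophoblast, had no count. Antisense exons overlap 30.7% of the exonic bases of Cdkn1c. Per length, Kcnq1ot1 was at least 15.8-fold higher than Cdkn1c in both libraries, with Cdkn1c set to the floor of 3 counts per library. With the longest transcript as the length, this bound was 14.7.

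Cd81 and Ascl2, members of that domain at opposite ends of the range, are shown as the 250 bases before their RefSeq starts: Cd81 at chr7:143052500-143052749 (plus strand) and Ascl2 at chr7:142969265-142969514 (minus strand). The RefSeq start of Cd81 lies downstream of the GENCODE start given above, so the last 11 bases of its stretch lie in a GENCODE exon.
Cd81: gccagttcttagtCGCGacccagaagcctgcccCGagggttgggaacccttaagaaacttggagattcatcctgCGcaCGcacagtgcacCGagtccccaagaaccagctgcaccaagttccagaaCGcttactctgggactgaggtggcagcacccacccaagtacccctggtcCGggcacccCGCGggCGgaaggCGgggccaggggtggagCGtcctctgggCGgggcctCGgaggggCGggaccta
Ascl2: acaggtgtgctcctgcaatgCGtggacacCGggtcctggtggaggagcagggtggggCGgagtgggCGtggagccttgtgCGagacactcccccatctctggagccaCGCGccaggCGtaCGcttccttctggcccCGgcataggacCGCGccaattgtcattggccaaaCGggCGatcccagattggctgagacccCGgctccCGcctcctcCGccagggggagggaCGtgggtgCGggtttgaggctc
The abundant gene holds 16 CpG and the gene without a count 19.

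The Snrpn/Ube3a domain was also mixed. Ube3a (chromosome 7, 59228750 to 59311536), a ubiquitin ligase gene that is imprinted mainly in neurons, stood at 186 and 189 CPM. Snrpn, a gene of a splicing protein expressed from the paternal allele, stood at 13.7 and 14.9 CPM. Per length the genes were closer, with Ube3a 1.38 ± 0.0684 times as abundant as Snrpn, or 2.77 times with the longest transcript as the length. Both levels are uncertain. For Snrpn, 27.3% of the exonic bases are shared with other genes on the same strand, among them Gm38393 and Snurf, and for Ube3a 27.3% lie opposite exons of Snhg14 and other genes. Gm38393 was at 15.1 ± 2.66 CPM, and Snurf had no count. Reads over bases that these genes share may have been counted for none of them. The MAGE family genes Ndn and Magel2, both paternally expressed and known from the nervous system, had no count.

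Several growth-regulating domains had no detected member. In the H19/Igf2 domain, the growth factor gene Igf2 had no count and H19, a long noncoding RNA that is abundant in fetal tissue, had 0 and 1 count. For Igf2, 62.8% of the exonic bases are shared with the joint transcript Gm49394, which had no count either. How reads over shared bases were counted is unknown here, so such reads may be missing from both genes. In the Dlk1/Meg3 domain, the 3 measured genes had no count: Dlk1, a membrane protein gene related to Notch ligands, and the noncoding RNAs Meg3 and Mirg. In the Peg10/Sgce domain, the retrotransposon-derived gene Peg10 and the sarcoglycan gene Sgce had no count. Ppp1r9a, the gene of the actin-binding protein neurabin, and Asb4, a gene of a ubiquitin ligase adaptor, had 1 count each over both libraries. In the Grb10/Ddc domain, Grb10, an adaptor gene that limits insulin and IGF receptor signalling, had no count, and the decarboxylase gene Ddc had 2 and 8 counts. No ratio was formed for H19 and Igf2, Meg3 and Dlk1, or Peg10 and Sgce, since both genes of each were at or under the floor.

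Of 7 genes that are the only listed member of their domain, 5 were detected. Gnas, the gene of the stimulatory G protein alpha subunit, was at 38.9 and 35.8 CPM, and 22.0% of its exonic bases lie opposite exons of other genes. Plagl1, a zinc finger factor gene that restrains growth, was at 18.3 CPM in both libraries. Impact, a gene of a regulator of the stress kinase GCN2, was at 8.64 and 10.97 CPM. Nnat, a membrane proteolipid gene that lies within Blcap, was at 4.38 and 5.04 CPM. Mest, a gene of a hydrolase-fold protein expressed in mesoderm, was at 4.57 and 4.48 CPM, and 23.1% of its exonic bases lie opposite exons of other genes, among them Copg2. Copg2 itself was at 86.4 ± 1.23 CPM, so antisense reads cannot be told apart from Mest reads where the genes overlap. Rasgrf1, a Ras exchange factor gene of neurons, and Dcn, the gene of the matrix proteoglycan decorin, had no count.

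Compared per kilobase of exons, the order of the 14 detected members changed at the top. Cd81 came first at 198 ± 9.67 CPM per kilobase, and its libraries lay above all others. Igf2r (78.4 ± 5.33) and Peg3 (71.7 ± 4.64) followed in the same unit, and their ranges over the libraries overlapped. Ube3a (9.09 ± 0.0752) and Snrpn (6.61 ± 0.383) came next without overlap. Gnas (3.34 ± 0.199) and Airn (3.30 ± 0.483) overlapped, as did Plagl1 with Phlda2 and Phlda2 with Impact among the genes between 1.91 and 2.34 CPM per kilobase. Kcnq1ot1, whose annotated length is 93092 bases, stood at 0.751 ± 0.139, and Usp29 was last at 0.142 ± 0.0141.

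Several domains without a detected member had detected genes beside them. Within the spans of 14 domains (all but that of Impact) and up to 200 kb to either side lay 92 other protein-coding genes. Of these 47 (51.1%) were detected, against 50.5% of all protein-coding genes. Among them, 18 are on a second list of imprinted genes, Casd1, Pon2, Copg2 and Rtl1 included, and 10 of these 18 were detected. The other 74 held 37 detected genes (50%). Beside the empty Peg10 and Sgce, Casd1 stood at 60.7 ± 2.20 CPM at a distance of 31 kb, and Pon2, between Ppp1r9a and Asb4, at 64.9 ± 1.35 CPM. On either side of Grb10 and Ddc, Fignl1 (51.0 ± 2.56 CPM, at 5.1 kb) and Cobl (124 ± 1.58 CPM, at 197.9 kb) were detected, while Mrpl23, 34.8 kb from H19, stood at 21.5 ± 2.18 CPM. Exceptions were the Dlk1/Meg3 domain, with Rtl1 as its only neighbour in this window and no count, and Dcn, where 0 of 4 neighbours were detected. Around Peg3 1 of 9 neighbours was detected, Zfp954 at 7.03 ± 0.0643 CPM, and 6 of the other 8 are olfactory receptor genes.

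**Figure D2:**
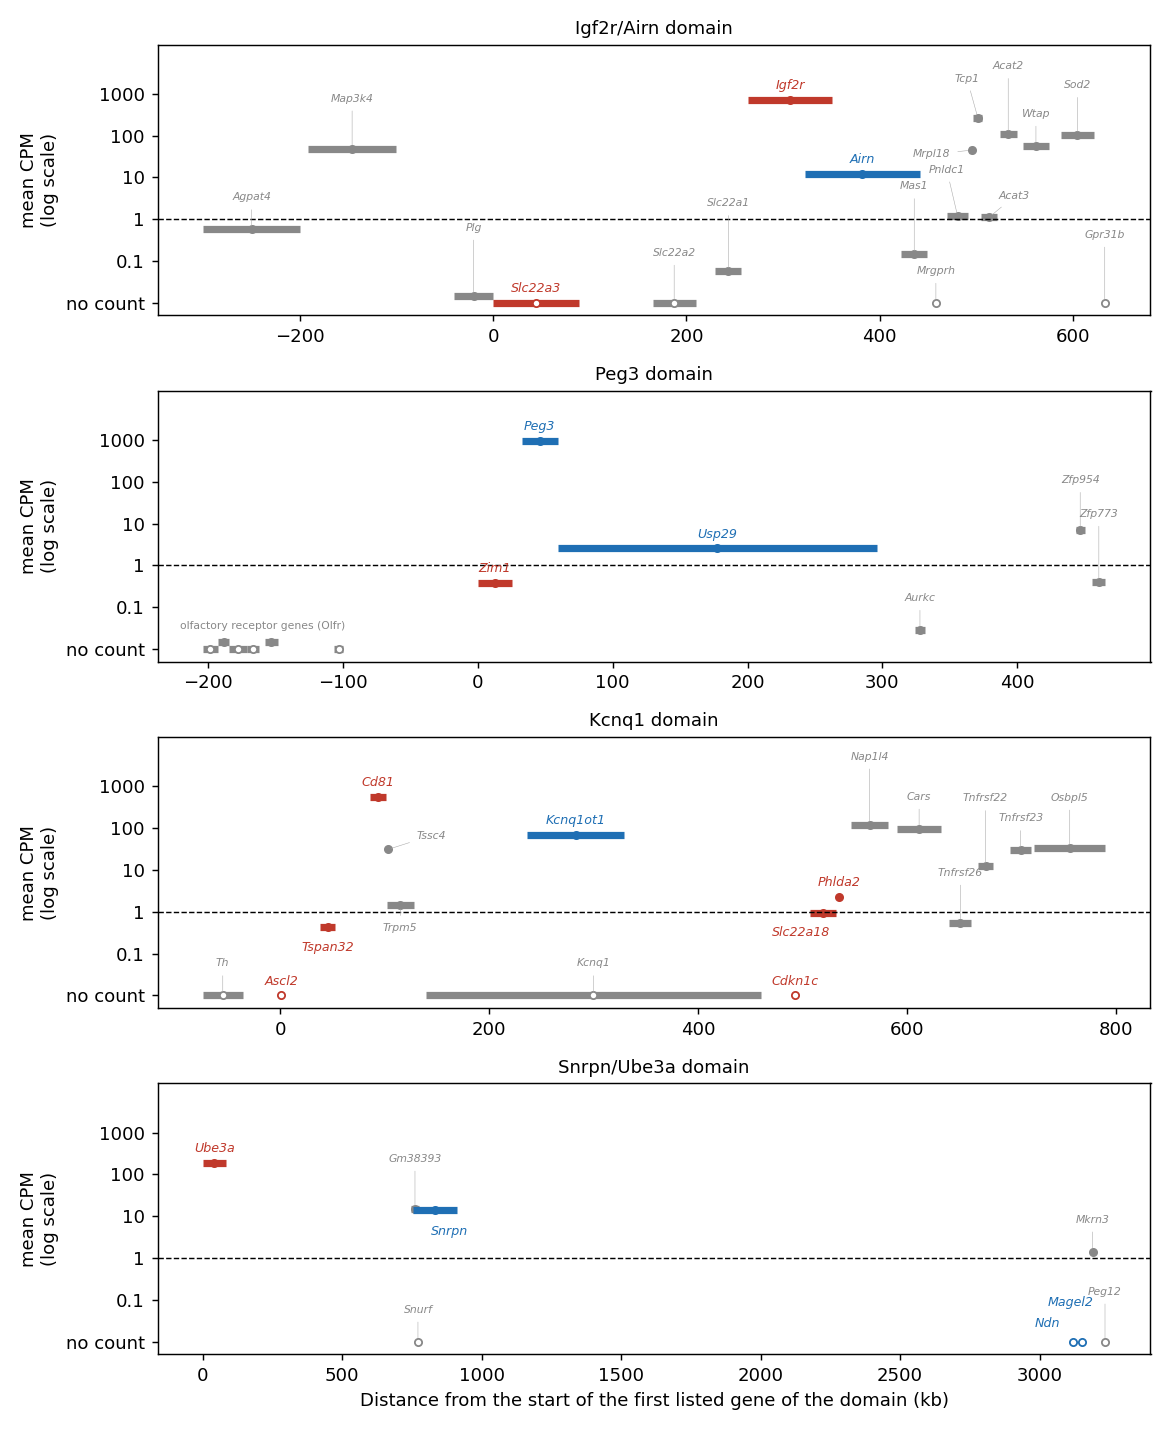
Mean level (vertical axis, CPM, log scale) of imprinted genes and of other protein-coding genes within 200 kb, against distance from the start of the first listed gene (kb), in 4 domains. Bars span each gene, blue and red mark genes known as paternally and maternally expressed, grey marks neighbours, and open points mark no count. Peg3 lies at 955 CPM where 1 of 9 neighbours is above 1 CPM, and Cdkn1c and Ascl2 have no count in a domain that also holds Cd81 at 571 CPM.

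Grouped by the allele known to be expressed, 9 of 17 paternally expressed members (52.9%) and 5 of 18 maternally expressed members (27.8%) were detected. The share was 37.7% over all genes and 50.5% over protein-coding genes. Members without a count were 7 of 17 (41.2%) and 7 of 18 (38.9%), against 41% of all genes and 31.7% of protein-coding genes. The paternal group held Peg3 and Kcnq1ot1, and the maternal group held Igf2r, Cd81 and Ube3a. The summed levels were 1035 and 1147 CPM for the paternal group and 1515 and 1544 CPM for the maternal group. These are counts over a chosen list and were not tested.

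CpG content before the start was available from RefSeq for 29 of the 35 members. For each gene the start with the most CpG was taken. The median was 14 CpG in 250 bases over 13 detected members and 10 over 10 members with no count. Over all genes of the table with such a sequence the medians were 18 for detected genes and 2 for genes with no count. Members with no count and many CpG were Grb10 with 40 (before a start inside its annotated span), Igf2 with 22, Rasgrf1 with 21 and Ascl2 with 19. Among detected members, Kcnq1ot1 held 5, Snrpn 4 and Airn 2. The hexamer TGCCGC, the core motif bound by ZFP57, was searched on both strands. Here the 250 bases before every RefSeq start of a gene were used, and a hit before any start counted. It was found for 4 of 29 members (13.8%), for 11.2% of the genes of the table with a stretch and for 9.84% of all 27025 RefSeq genes. These are descriptions of the letters, and neither binding nor methylation was measured. Bases after the starts were not counted or searched, so any control region lying there is left out.

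**Figure D3:**
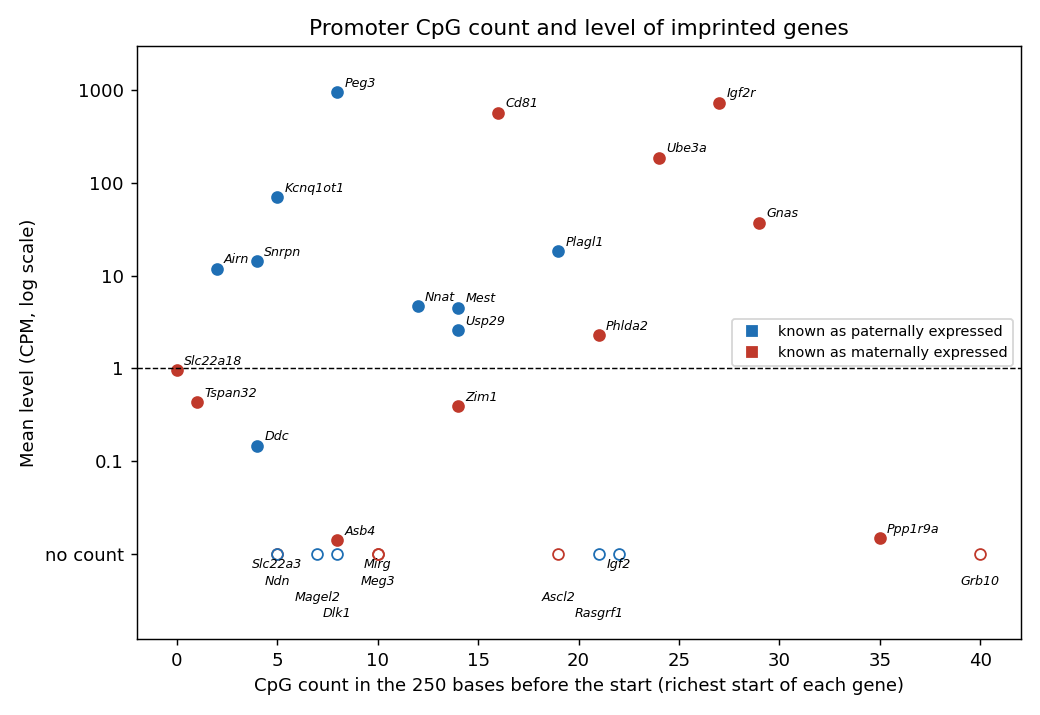
Number of CpG dinucleotides in the 250 bases before the start (horizontal axis, start with the most CpG) against mean level (vertical axis, CPM, log scale) for 29 imprinted genes, coloured by the parental allele known to be expressed. Open circles mark no count and the dashed line marks 1 CPM. Grb10 with 40 CpG has no count, while Airn with 2 is detected.

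Imprinted genes touch the insulin-like growth factor (IGF) pathway at several points, through the ligand Igf2, the clearing receptor Igf2r and the adaptor Grb10. The ligand gene Igf1 had no count, like Igf2. The signalling receptor genes Igf1r (138 ± 5.74 CPM) and Insr (123 ± 4.51 CPM) were detected. Of 27 genes on a list drawn around this pathway 14 (51.9%) were detected, close to the 50.5% of all protein-coding genes. No count was found for 7, among them the binding protein genes Igfbp1, Igfbp2 and Igfbp3. The binding protein gene Igfbp5 was detected at 64.4 ± 3.16 CPM, while Igfbp4, Igfbp6 and Igfbp7 had counts but were not detected. Per kilobase the highest on the list, which is wider than the pathway itself, was M6pr, the gene of the smaller mannose-6-phosphate receptor, at 37.1 ± 0.869. The signalling genes Grb2 (23.3 ± 0.0586), Akt2 (20.2 ± 0.330) and Shc1 (17.9 ± 0.357) came next. Igf2r, at 78.4 per kilobase, stood above M6pr in both libraries. The lowest with a count were Grb14 (3 and 1 counts) and Irs4 (1 and 0 counts). Between the libraries 1 of 15 tested genes was called, Igf1r with a log2 ratio of 0.08 (exact binomial test, adjusted p = 0.0497), where 8.13% of all tested genes were called. With a common dispersion, edgeR's exact test called 0 of the 15, against 0.142% of all genes, and 3 were at an unadjusted binomial p under 0.05, against 19.9%.

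Genes of factors linked to the setting, upkeep or removal of imprints were broadly detected. Of 29 such genes 25 (86.2%) were detected, against 50.5% of all protein-coding genes. This share describes a chosen list, was not tested and does not measure the upkeep of imprints. Per kilobase the cohesin gene Rad21 (82.2 ± 2.33), the corepressor gene Trim28 (71.2 ± 0.733), the maintenance methyltransferase gene Dnmt1 (52.6 ± 0.403) and Mbd3 (49.3 ± 0.998) were highest. The lowest with a count were Tet1 (1.30 ± 0.151) and the de novo methyltransferase gene Dnmt3b (0.914 ± 0.0355). Zfp57, which binds methylated control regions in embryonic cells, had no count, and neither had the germ cell and early embryo genes Ctcfl, Dnmt3l and Dppa3. Between the libraries 5 of 25 (20%) were called by the exact binomial test, 3 higher and 2 lower in replicate 2, against 8.13% of all tested genes, and 0 by edgeR's exact test with a common dispersion, against 0.142%. At an unadjusted binomial p under 0.05 there were 11, against 19.9%.

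Between the libraries the called imprinted genes differed by log2 ratios of 0.38 or less in size. With 1 library on each side, the exact binomial test compares these libraries, covers counting error only and finds small differences in abundant genes. It called 6 of 17 tested members (35.3%) at a Benjamini-Hochberg adjusted p under 0.05 over all 13336 tested genes, where 8.13% of all genes were called. Of these, 5 were higher in replicate 2 (background 3.67%) and 1 was lower (4.46%). At an unadjusted p under 0.05 there were 7 members, against 19.9% of all genes. The other 18 members had too few counts to be tested. The median log2 ratio of replicate 2 to replicate 1 was 0.12 over the tested members and -0.0017 over all tested genes.

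Kcnq1ot1 differed most among the called members, with a log2 ratio of 0.38 (adjusted p = 1.71e-17, exact binomial test). The other noncoding RNA, Airn, had a ratio of 0.30 (adjusted p = 0.0403) and Impact 0.34 (adjusted p = 0.0314). Igf2r (0.14, adjusted p = 1.12e-24) and Peg3 (0.13, adjusted p = 2.29e-29) were also higher in replicate 2, and Cd81 was lower (-0.10, adjusted p = 9.75e-10). With a common dispersion estimated over both libraries, edgeR's exact test called Kcnq1ot1 alone among the members (adjusted p = 0.00168), where 0.142% of all genes were called. All calls of that test, over all genes, were higher in replicate 2. Of 1448 tested genes at least as long as Igf2r in exons, 14.6% were called higher and 2.9% lower in replicate 2, with a median log2 ratio of 0.03. The median log2 ratio of 1198 tested lincRNA and antisense genes, the class of Kcnq1ot1 and Airn, was 0.12. Of these, 2.59% were called higher, against 3.67% of all genes, and 0 lower, and the other called members are protein-coding. The part of length and RNA class in the members' ratios was not tested.

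**Figure D4:**
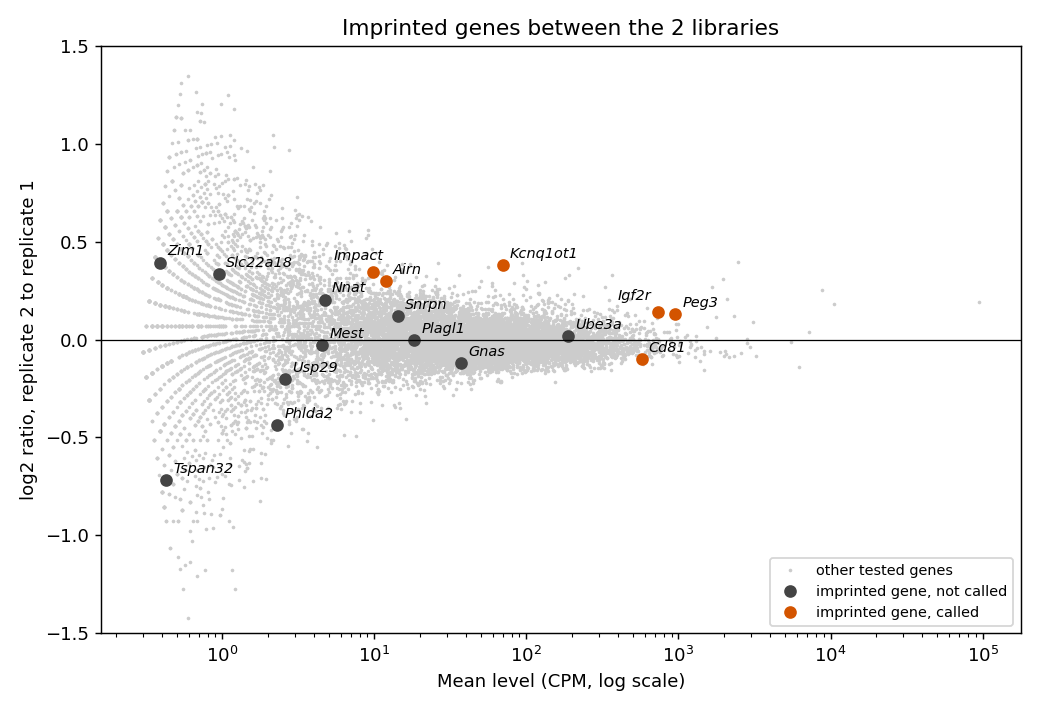
Log2 ratio of replicate 2 to replicate 1 (vertical axis) against mean level (horizontal axis, CPM, log scale) for all tested genes (grey) and the 17 tested imprinted genes (dark where not called, orange where called by the exact binomial test). Kcnq1ot1 lies at the upper edge of the grey points at 0.38, while Igf2r, Peg3 and Cd81 lie within 0.14 of 0.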

How the data were processed

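RNA of 2 TUBO libraries was extracted on columns with DNase treatment and made into stranded mRNA libraries, per the labels' protocols. The authors deposited raw counts per gene symbol, with no normalization. The submitters' processing notes name STAR 2.7.9a, featureCounts, R 4.1.1 and mm10, without roles; no source used here gives the annotation or the strand setting. Columns were assigned by the replicate number in the labels.

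Counts were scaled with TMM factors (1.005 and 0.9946) in edgeR 4.0.16. Exonic lengths and positions came from GENCODE M21 (GRCm38), where 98.3% of the table's genes had a single match. filterByExpr kept 13336 genes, and replicate 2 was compared with replicate 1 for each by the exact binomial test (two-sided, Benjamini-Hochberg adjusted), its expected share set by the TMM-scaled totals. The procedure was also tested on simulated data. Intervals and floors cover counting error only, since reads carry no molecular identifiers. The members, lists and tests were chosen with earlier results of these data known. Named are all members and, of the other lists, the 4 highest and 2 lowest per kilobase, those without a count where there are up to 6, and called genes with a 1.25-fold or larger difference. Neighbouring genes, promoters, the ratio of Peg3 to Usp29, the split of tested genes by length and class, and other named genes were chosen after their values were seen. DESeq2 1.42.0 size factors, total counts, other minimums, pseudocounts and lengths, and each library alone were alternatives. Promoter sequences are RefSeq's (GRCm38.p6).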

Additional observations from a re-analysis of the deposited data

How the results depend on the processing

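The count of 14 detected members stayed within 10 to 15 under other scalings, at minimums of 0.5 and 5 CPM and in each library alone. The 35 levels stayed within 1 SD under both other scalings. For the 14 members with no count this was fixed in advance, since a level of 0 cannot move with scaling. The median level of the members (0.19) lay between 0.08 and 0.31 in single libraries and was -2.13 with a pseudocount of 0.1 CPM, which follows from the scale. The count of 6 members called between libraries was 6 with total counts and DESeq2 size factors, 5 without the filter and 1 with edgeR's exact test. Scaling moved the split of all calls, with 45.1% higher in replicate 2 under TMM factors, 28.9% under total counts and 37.7% under DESeq2 size factors, while the 6 called members kept their direction under all of these. The median ratio of the tested members stayed between 0.10 and 0.13, compared against the SD of the ratio over those members, since a single ratio has no replicate spread.

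Ratios between genes depend on the length used. Without division by length they were 61.9 for Igf2r to Airn, 2482 for Peg3 to Zim1, 13.2 for Ube3a to Snrpn, 375 for Peg3 to Usp29 and at least 722 for Kcnq1ot1 to Cdkn1c. With the longest transcript as the length they were 9.57, 2197, 2.77 and 325 for the first 4 of these. For Kcnq1ot1 to Cdkn1c the bound was then 14.7. In single libraries the bound for Kcnq1ot1 to Cdkn1c was 15.8 and 19.6. No paired analysis was possible because the labels give 1 group. Genes under 3 counts cannot be told from silent genes at this depth.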

Other observations

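A further list of imprinted genes outside the members had 42 genes in the table. Of these 18 (42.9%) were detected and 19 (45.2%) had no count, against 37.7% and 41% of all genes. Over all protein-coding genes these shares were 50.5% and 31.7%. Ano1, the gene of a calcium-activated chloride channel known to be imprinted in the placenta, was the highest per kilobase (237 ± 6.87). Its level was 1478 ± 42.9 CPM, and per kilobase it stood above Cd81 (198 ± 9.67) in both libraries. Nap1l4 (39.1 ± 1.36 per kilobase), Dhcr7 (26.4 ± 1.52), a gene of the last step of cholesterol synthesis, and Copg2 (16.9 ± 0.240) followed. The lowest with a count were Qpct (0 and 2 counts) and Zdbf2 (0 and 1 count). Of 19 tested genes 2 (10.5%) were called between the libraries by the exact binomial test, both lower in replicate 2, against 8.13% of all tested genes. By edgeR's exact test 0 were called, against 0.142% of all tested genes, and 3 were at an unadjusted binomial p under 0.05, against 19.9%.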
